A study of Mus musculus with 6 samples.

Results

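The genes described here are the transcripts of the negative limb and the output limb of the mammalian circadian clock. They are the period genes Per1, Per2 and Per3, the cryptochrome genes Cry1 and Cry2, the nuclear receptor genes Nr1d1 and Nr1d2 that encode REV-ERBα and REV-ERBβ, and the PAR bZIP genes Dbp, Tef and Hlf. They were chosen by symbol, with no measured value in the rule but with earlier results of these data known. All 10 were found among the 49548 genes of the count table. mRNA was sequenced from native cardiac fibroblasts (CFs) of WT and CharmeKO C57BL/6J mice aged 5 weeks, in 3 libraries a group that are named WT1 to WT3 and KO1 to KO3. CharmeKO mice carry a polyadenylation signal in the locus of Charme, a long non-coding RNA of cardiomyocytes, in every cell of the body. The study compared the groups to learn how CFs differ in hearts that develop without this RNA. Both groups went through tissue dissociation and depletion of the hematopoietic lineages, so the libraries hold the remaining stroma of the heart, and a lower level in such a mixture cannot be told apart from fewer cells of the type that makes the transcript. The labels also list a growth medium on fibronectin, while the methods of the study describe these cells as freshly isolated. The hour at which hearts were collected is not given in the sources used here.

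The circadian clock is a delayed negative feedback loop that runs in nearly every cell, cardiac fibroblasts included. The activators CLOCK (or its relative NPAS2) and BMAL1 bind E-boxes and switch on the Per, Cry, Nr1d and PAR bZIP genes. PER and CRY proteins then return to the nucleus and block the activators, while REV-ERBs compete with the activating ROR receptors at elements called ROREs and repress Bmal1, Npas2, Clock, Nfil3 and Cry1. DBP, TEF and HLF carry the rhythm to output genes through D-boxes, where NFIL3 opposes them, and Per1 and Per2 also respond within the hour to hormones, stress and growth factors.

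These elements can be read in the DNA just upstream of the members. RefSeq promoters on GRCm38.p6, from 250 bases before to 50 after each start, were on hand for 9 of the 10 members (all but Per2), and 7 of these 9 held at least 1 of the elements searched on both strands. The elements were the E-box CACGTG, found in 7.15% of all 32851 promoters of this kind, the E-prime-box CACGTT (4.68%), the D-box TTATGTAA (0.938%), its variant TTATGCAA (0.743%), the RORE TAGGTCA (2.61%) and the cAMP element TGACGTCA (1.79%). The share of all promoters that hold any of these elements was not counted, and Per1 and Tef had more than 1 promoter each. The 7 of 9 members therefore have no like share to be set against. None of these motifs shares letters with another at the matches printed. The sequences below are shown because they carry the kinds of element through which the clock proteins act on these genes. Each runs 5′ to 3′ on the strand of the gene, with the matched elements in capitals, and covers the 250 bases before the start or, for Bmal1, 30 bases that lie after it.
Per1, chr11:69098699-69098948, plus strand: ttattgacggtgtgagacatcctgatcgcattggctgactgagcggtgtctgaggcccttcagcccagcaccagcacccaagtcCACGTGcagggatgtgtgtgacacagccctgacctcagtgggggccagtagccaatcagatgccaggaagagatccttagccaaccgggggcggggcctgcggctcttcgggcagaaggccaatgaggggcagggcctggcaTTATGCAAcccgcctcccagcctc
Per3, chr4:151044666-151044915, minus strand: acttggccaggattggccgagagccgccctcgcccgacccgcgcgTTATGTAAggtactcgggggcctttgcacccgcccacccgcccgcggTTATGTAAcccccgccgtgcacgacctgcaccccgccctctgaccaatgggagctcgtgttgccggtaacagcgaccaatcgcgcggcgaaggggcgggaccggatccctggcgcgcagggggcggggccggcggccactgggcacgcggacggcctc
Cry1, chr10:85185055-85185304, minus strand: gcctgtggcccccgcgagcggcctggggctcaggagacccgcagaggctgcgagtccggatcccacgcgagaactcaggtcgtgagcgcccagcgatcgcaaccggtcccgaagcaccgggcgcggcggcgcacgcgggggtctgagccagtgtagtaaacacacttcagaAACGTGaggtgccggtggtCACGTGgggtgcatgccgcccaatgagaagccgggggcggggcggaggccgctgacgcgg
Nr1d1, chr11:98775378-98775627, minus strand: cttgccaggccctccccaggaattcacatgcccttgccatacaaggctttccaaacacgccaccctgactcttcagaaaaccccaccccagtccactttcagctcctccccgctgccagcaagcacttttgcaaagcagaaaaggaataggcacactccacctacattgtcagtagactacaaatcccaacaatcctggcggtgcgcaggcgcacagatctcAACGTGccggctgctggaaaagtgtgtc
Bmal1, chr7:113207530-113207559, plus strand: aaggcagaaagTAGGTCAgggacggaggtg

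Per1 held an E-box whose first base lies at -166 from the start and a D-box variant at -24. Per3 held 2 D-boxes, at -205 and -158. In Cry1 an E-prime-box at -79 (read as AACGTG on the strand shown) stood beside an E-box at -60, and Nr1d1 held an E-prime-box at -28. Of the members not printed, Cry2 held an E-prime-box at -166, each of the promoters listed for Tef an E-box, at -127 and -138, and Hlf a cAMP element at -9. None of these letters occurred in the windows of Dbp and Nr1d2, which says nothing about elements elsewhere in the genes. Outside the members, the RORE of Bmal1 (Arntl in RefSeq) began at 31 and that of Nfil3 at -12, and Ciart held 3 E-boxes. These matches describe the sequence, and no binding was measured in these libraries.

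The libraries held between 9595701 (WT3) and 42101393 (WT1) reads counted on genes, and a count of 0 allows up to 3 counts, or between 0.0713 and 0.313 CPM, for counting error alone. CPM is the count scaled to the library total after TMM normalization. Charme had 26, 15 and 4 counts in WT1 to WT3 and 7, 0 and 0 in KO1 to KO3, so the check of the genotype rests on few reads and KO1 still held some. Xist was at 376 to 473 CPM in WT1, KO1 and KO2 and at 0 to 2.55 CPM in the other 3 libraries, so that the libraries differ in sex and each group holds both. Y-linked genes summed to between 95.3 and 113 CPM in WT2, WT3 and KO3 and to 0 in WT1 and KO2. KO1 held 4.75 CPM of them beside its high Xist, and the source of these reads was not tested. Fibroblast markers summed to between 41288 and 44137 CPM in WT and between 34023 and 42595 CPM in CharmeKO. Endothelial markers, which a lineage depletion against blood cells leaves in place, summed to 10609 to 12976 and 11078 to 13793 CPM. The test was run on the 15789 genes that reached 10 counts in 2 or more libraries, of which edgeR's quasi-likelihood test called 131 (0.830%) between the groups at a Benjamini-Hochberg adjusted p under 0.05. All 10 members passed this filter on low counts, with their lowest library at 18.1 CPM.

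The members were expressed at very different levels in WT CFs. Per kilobase of exon, mean levels in WT ran from 124 ± 14.7 CPM per kb (SD, n = 3) for Nr1d1 through 92.5 ± 13.2 for Per1 and 75.1 ± 11.3 for Dbp down to 7.03 ± 1.61 for Cry1. Between these lay Tef at 39.8 ± 8.72, Nr1d2 at 34.4 ± 2.99, Per2 at 23.4 ± 10.2, Cry2 at 15.0 ± 2.09, Hlf at 11.9 ± 3.50 and Per3 at 7.58 ± 2.05 CPM per kb. The WT ranges of neighbours in this order were apart only between Nr1d1 and Per1 and between Dbp and Tef, and those of every other pair overlapped. These ranges pool the 3 WT libraries and do not compare genes within a library. Within each family one member therefore stood above its relatives, Per1 among the period genes, Nr1d1 among the REV-ERBs and Dbp among the PAR bZIP factors. KO2 had another order, in which Per1 was first at 54.4 CPM per kb, Nr1d1 sixth at 13.6 and Cry1 seventh at 10.7.

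No member passed the test between CharmeKO and WT. By edgeR, adjusted p ran from 0.204 (Cry2) to 0.981 (Hlf), and 0 of 10 members passed where 0.830% of all genes did. By DESeq2 the count was also 0, with a smallest adjusted p of 0.0890 (Cry2), where 2.55% of the 15481 genes with an adjusted p passed. At an unadjusted p under 0.05, edgeR gave 2 members, Per1 and Cry2, beside 12.8% of all genes. The groups did not overlap for 1 member, Cry2, beside 18.2% of all genes. The filter on low counts mattered here: when all 24579 genes with a count were tested, edgeR called 699 genes in place of 131, and 3 members, Nr1d1, Per1 and Cry2, were lower beside 1.81% of all genes. The log2 fold change was below 0 for 8 members and above 0 for 2, with a median of -0.20 beside 0.01 over all tested genes. The library KO2 decided much of this balance.

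**Figure D1:**
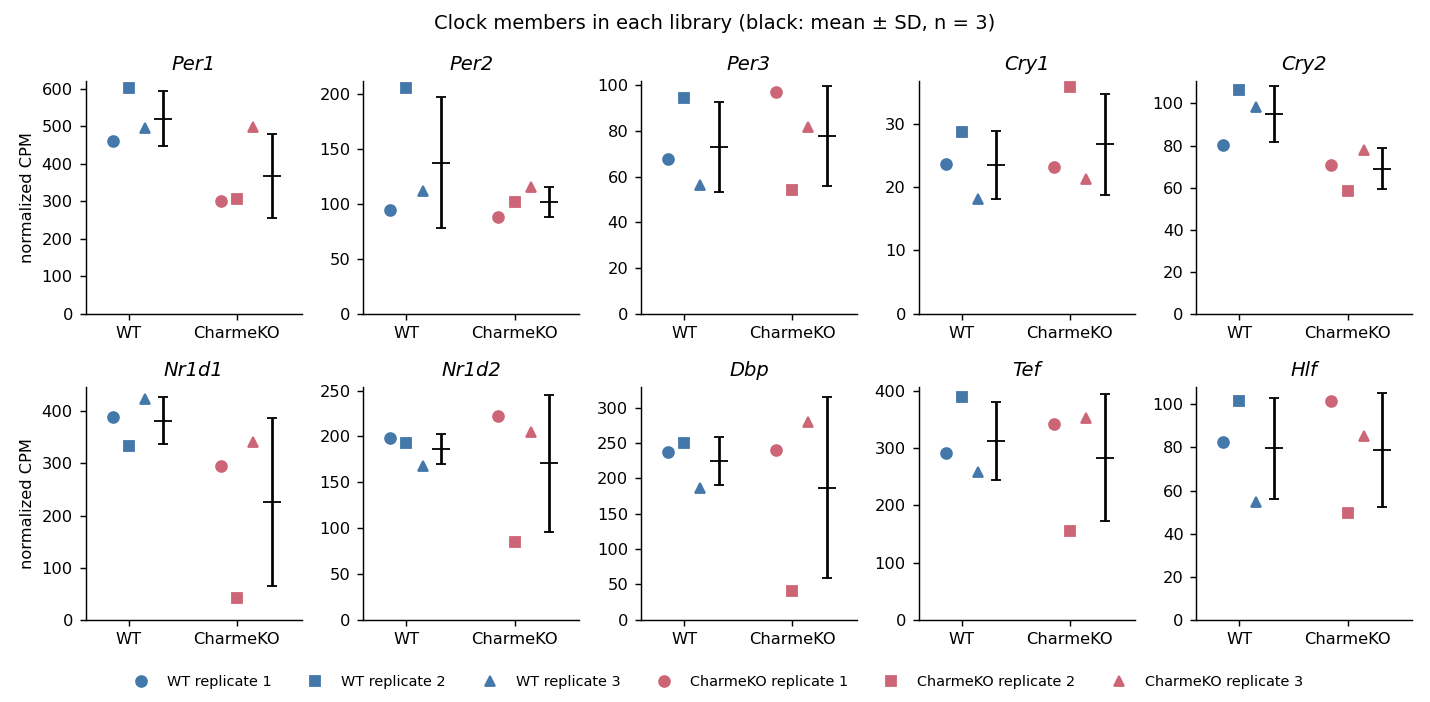
Normalized CPM (vertical axes, from 0) of the 10 clock members in the 3 WT (blue) and 3 CharmeKO (red) libraries, with circles, squares and triangles for replicates 1, 2 and 3 and black bars for the mean ± SD of each group (n = 3). The square of CharmeKO lies far below the other 5 points for Nr1d1 (41.7 CPM) and Dbp (40.7 CPM), below them also for Nr1d2 and Tef, and above them for Cry1.

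The period genes encode the PER proteins, which hold CRY in the repressor complex. Per1 stood at 462, 604 and 497 CPM in WT1 to WT3 and at 300.0, 306 and 498 CPM in KO1 to KO3. KO1 and KO2 were below every WT library, whereas KO3 lay inside the WT range. The means were 521 ± 74.2 and 368 ± 112 CPM (SD, n = 3), a log2 fold change of -0.50 (SE 0.20, 95% CI -0.93 to -0.07, edgeR adjusted p = 0.317). Without KO3, the log2 fold change was -0.78 with an edgeR adjusted p of 0.047, beside 1.22% of all genes called, so the call of Per1 turned on that library.

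Per2, whose loss disturbs daily rhythms in mice, was at 94.7, 205 and 112 CPM in WT and at 87.7, 102 and 116 CPM in CharmeKO. WT2 stood apart, and the other 5 libraries lay between 87.7 and 116 CPM. The group means of 137 ± 59.6 and 102 ± 14.0 CPM differed by -0.44 on the log2 scale (SE 0.24, 95% CI -0.96 to 0.09, edgeR adjusted p = 0.483). Per3, a period gene that the core oscillator can do without, was at 67.7, 94.6 and 56.2 CPM in WT and 97.1, 54.0 and 81.9 CPM in CharmeKO. The groups overlapped widely, with a log2 fold change of 0.09 (SE 0.22, 95% CI -0.39 to 0.57, edgeR adjusted p = 0.904).

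The cryptochromes are the main repressors of CLOCK and BMAL1. Cry2 was at 80.4, 106 and 98.2 CPM in WT and at 70.8, 58.6 and 77.7 CPM in CharmeKO. All 3 CharmeKO libraries were below all 3 WT libraries, by a narrow gap between KO3 and WT1. The log2 fold change was -0.46 (SE 0.14, 95% CI -0.76 to -0.15, edgeR adjusted p = 0.204), and without KO2 it was -0.35 (edgeR adjusted p = 0.617). Cry1 was at 23.6, 28.8 and 18.1 CPM in WT and at 23.2, 35.9 and 21.2 CPM in CharmeKO. KO2 was the highest of the 6 libraries for Cry1, the one member of which that is true. Its log2 fold change was 0.17 (SE 0.21, 95% CI -0.30 to 0.64, edgeR adjusted p = 0.795) with KO2 and -0.09 without it.

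The REV-ERBs repress the activator genes and are direct E-box targets. Nr1d1 was at 388, 334 and 424 CPM in WT and at 295, 41.7 and 342 CPM in CharmeKO. KO2 was 8.54-fold below the mean of the other 5 libraries (357 CPM), which lay between 295 and 424 CPM. The count behind this value was 1021 reads in KO2 and 8440 in KO1, so the gap is not one of low counts. The means of 382 ± 45.1 and 226 ± 161 CPM gave a log2 fold change of -0.76 (SE 0.51, 95% CI -1.88 to 0.37, edgeR adjusted p = 0.582), which was -0.26 (SE 0.16, 95% CI -0.61 to 0.09) without KO2 and -1.18 without KO3.

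Nr1d2, the relative of Nr1d1, was at 198, 193 and 168 CPM in WT and at 222, 85.2 and 205 CPM in CharmeKO. Again KO2 alone was low, 2.31-fold below the mean of the other 5. The log2 fold change of -0.12 (SE 0.27, 95% CI -0.72 to 0.47, edgeR adjusted p = 0.891) became 0.20 without KO2.

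The PAR bZIP factors showed the same library at the bottom. Dbp, the member of the family with the largest daily swing in most tissues, was at 237, 250.5 and 187 CPM in WT and at 241, 40.7 and 280.0 CPM in CharmeKO. KO2 was 5.88-fold below the mean of the other 5 libraries, while KO1 and KO3 lay within or above the WT range. The log2 fold change was -0.27 (SE 0.48, 95% CI -1.31 to 0.78, edgeR adjusted p = 0.866) and 0.21 (edgeR adjusted p = 0.800) without KO2.

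Tef was at 291, 389.7 and 258 CPM in WT and at 343, 155 and 353 CPM in CharmeKO, with KO2 2.10-fold below the mean of the other 5. Hlf was at 82.6, 101 and 54.8 CPM in WT and at 101, 49.8 and 85.1 CPM in CharmeKO. For Hlf, KO2 was again the lowest library, 1.71-fold below the mean of the others, but WT3 was close to it. Their log2 fold changes were -0.14 (SE 0.27, 95% CI -0.73 to 0.44) and -0.02 (SE 0.25, 95% CI -0.57 to 0.53), with edgeR adjusted p of 0.871 and 0.981, and became 0.16 and 0.23 without KO2.

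KO2 was the lowest library for the REV-ERB and PAR bZIP members, and also for Per3 and Cry2. It was singled out after its values were seen, so the values that follow are a description with no test. A departure was counted where a library lay at least 2-fold from the mean of the other 5, among the 10472 genes with a mean of at least 5 CPM. KO2 had 4 of 10 members past this line (Nr1d1, Dbp, Nr1d2 and Tef, all lower), where 1.30% of all these genes were. WT2 had 1 of 10 (Per2, higher) beside 1.50% of all genes. WT1, WT3, KO1 and KO3 had 0 of 10, beside 0.735%, 1.21%, 0.993% and 0.420%. KO2 was therefore no more divergent than WT2 over the transcriptome by this count.

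Ranked by its ratio to the other 5 libraries, Nr1d1 in KO2 was the 7th lowest of the 10472 genes, Dbp the 10th, Nr1d2 the 54th and Tef the 85th. Hlf followed at rank 234 and Per1 at rank 411. KO2 was the lowest of the 6 libraries for 7 members, KO1 for 2 and WT3 for 1. WT2 was the highest for 4 members. The spread of Nr1d1, Dbp and Nr1d2 over the 6 libraries came largely from KO2. The coefficient of variation of Nr1d1 was 44.8% with it and 14.1% without it, that of Dbp 42.0% and 14.1%, and that of Nr1d2 27.5% and 10.1%. Per2, in contrast, varied by 36.3% with KO2 and 38.6% without it.

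**Figure D2:**
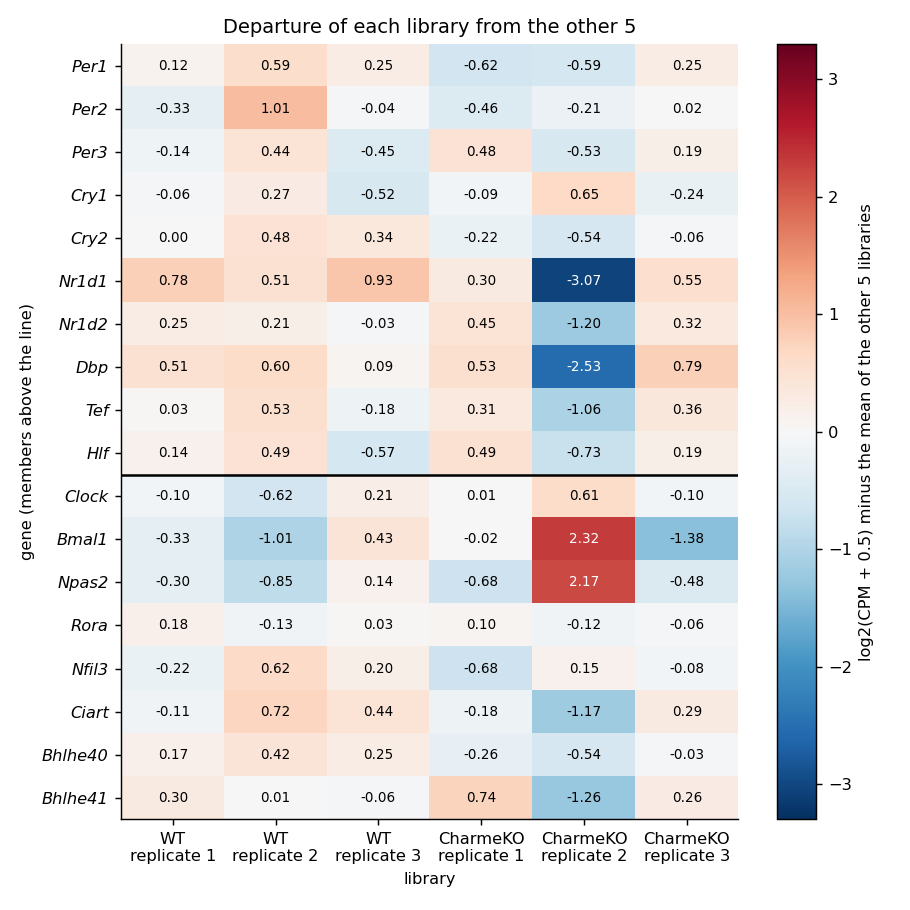
Departure of each library (columns) from the mean of the other 5 on the log2(CPM + 0.5) scale, for the 10 members (above the line) and 8 other clock genes, with blue for lower and red for higher. The column of CharmeKO replicate 2 holds -3.07 for Nr1d1, -2.53 for Dbp, 2.32 for Bmal1 and 2.17 for Npas2, the largest departures shown.

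The genes on the opposite side of the loop went the other way in KO2. Bmal1, whose protein pairs with CLOCK, was at 5.24, 3.38 and 8.39 CPM in WT and at 6.35, 26.0 and 2.63 CPM in CharmeKO, from counts of 223, 89, 78, 182, 635 and 80. KO2 was 4.99-fold above the mean of the other 5 libraries, the highest such ratio among the 10472 genes. Npas2, the relative of Clock, was at 2.63, 1.79 and 3.55 CPM in WT and 2.02, 12.6 and 2.33 CPM in CharmeKO. KO2 was 5.09-fold above the others, although the mean of Npas2 over the libraries was below the 5 CPM needed for ranking. Clock differed less, with 82.1 CPM in KO2 and 40.1 to 65.2 CPM elsewhere.

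Between the groups these activator genes did not pass the test by edgeR, with log2 fold changes of 1.08 for Bmal1 (SE 0.64, 95% CI -0.33 to 2.50, adjusted p = 0.519), 1.12 for Npas2 (adjusted p = 0.482) and 0.29 for Clock (adjusted p = 0.565). Without KO2 they were -0.30, -0.25 and 0.09, and when all 24579 genes were tested, Bmal1 and Npas2 passed as higher, beside 1.03% of all genes. The departures of Nr1d1 and Bmal1 in KO2 were thus of opposite sign, and the cause was not tested. Over the whole list of activators and ROR genes, 0 of 7 passed. Their log2 fold changes had a median of 0.83, which became -0.01 without KO2, beside 0.01 over all genes in both fits. Among the ROR receptors, which activate where REV-ERBs repress, Rora lay between 79.6 and 95.0 CPM in all 6 libraries.

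Among the other clock repressors, 0 of 5 passed by edgeR. Ciart, an E-box-driven inhibitor of the activators, was at 8.95, 14.8 and 12.5 CPM in WT and 8.59, 4.62 and 11.4 CPM in CharmeKO. Bhlhe41, which competes for E-boxes, was at 30.0, 25.3 and 24.2 CPM in WT and 38.9, 11.9 and 29.3 CPM in CharmeKO. Both were lowest in KO2, by 2.43-fold and 2.48-fold against the other 5. Nfil3, the D-box repressor, was not (57.4 CPM in KO2 and 35.4 to 75.6 CPM elsewhere), nor was Timeless (101 and 70.2 to 96.8 CPM). Bhlhe40, the more abundant relative of Bhlhe41, fell by DESeq2 (adjusted p = 0.0329) and missed the threshold by edgeR (log2 fold change -0.46, SE 0.14, adjusted p = 0.218). It stood at 841, 974 and 880.0 CPM in WT and at 657, 558 and 749 CPM in CharmeKO, without overlap.

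**Figure D3:**
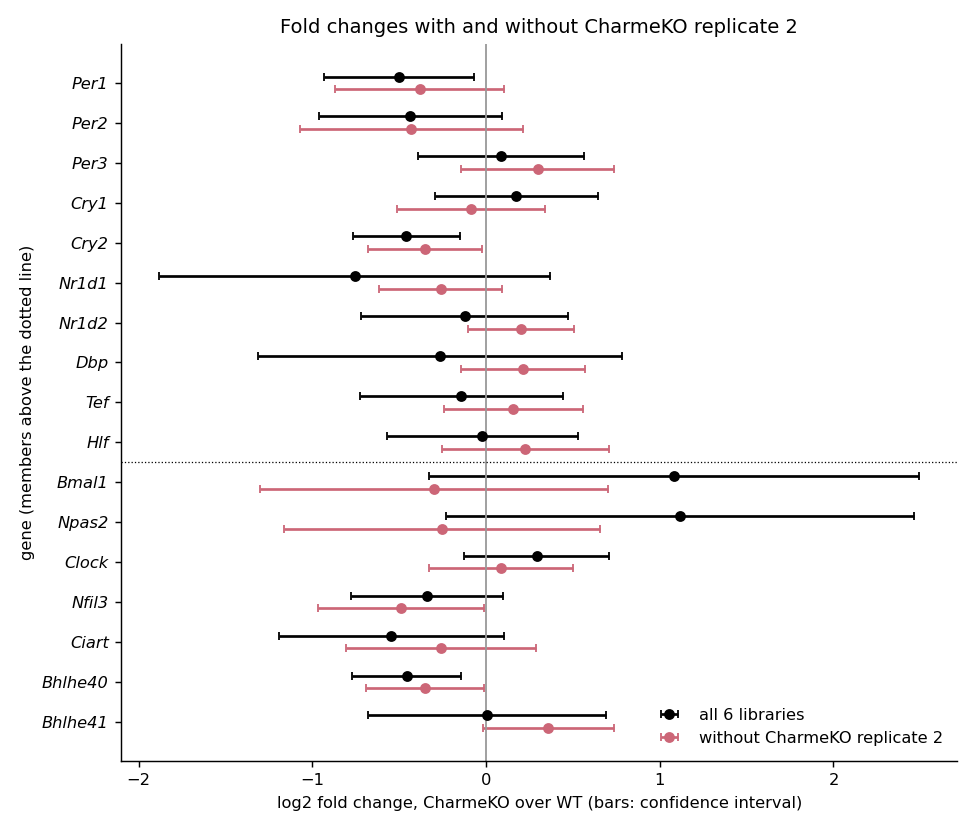
Log2 fold change of CharmeKO over WT (horizontal axis) with its 95% confidence interval for the 10 members (above the dotted line) and 7 other clock genes, from all 6 libraries (black) and without CharmeKO replicate 2 (red). The black interval of Nr1d1 runs from -1.88 to 0.37 and the red one from -0.61 to 0.09, and Bmal1 moves from 1.08 to -0.30.

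Without KO2, 0 of 10 members passed by edgeR, beside 0.430% of all genes tested in the same way (67 of 15571), with 1 member, Cry2, at an unadjusted p under 0.05. Of the log2 fold changes, 5 were then below 0 and 5 above, with a median of 0.03, and adjusted p ran from 0.617 to 0.944. Per1, Per2 and Cry2 kept values of -0.38, -0.43 and -0.35, close to those with KO2. Nr1d2, Dbp, Tef and Hlf turned from below 0 to between 0.16 and 0.23, and Cry1 turned to -0.09. The sign for Nr1d2, Dbp, Tef and Hlf therefore turned with KO2 left out, and that for Per1, Per2, Cry2 and Nr1d1 did not. Per2 leaned on WT2 instead, with a log2 fold change of -0.020 without that library.

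Ratios of plain CPM within a library do not depend on how libraries are scaled. The 3 compared here are differences of log2(CPM + 0.5), and the added 0.5 lets scaling matter for genes of few CPM, such as Bmal1. The log2 ratio of Nr1d1 to Bmal1, the REV-ERB gene and its target, was 6.08, 6.43 and 5.58 in WT and 5.43, 0.67 and 6.77 in CharmeKO. KO2 was the one library in which both transcripts were at like CPM, and KO1 and KO3 lay just below and just above the WT range. The difference of CharmeKO minus WT was -1.74 (6.03 ± 0.43 and 4.29 ± 3.20, SD, n = 3, two-sided exact permutation test, p = 0.6, adjusted over the 3 ratios p = 0.9). Dbp to Nfil3, the activator and the repressor of D-boxes, gave 2.35, 1.72 and 1.65 in WT and 2.75, -0.49 and 2.47 in CharmeKO, so that Nfil3 exceeded Dbp in KO2 alone. CharmeKO minus WT was -0.33 here (two-sided exact permutation test, p = 1, adjusted p = 1). Per2 to Cry1 gave 1.98, 2.81 and 2.60 in WT and 1.89, 1.49 and 2.42 in CharmeKO, which is -0.53 from WT to CharmeKO (two-sided exact permutation test, p = 0.2, adjusted p = 0.6). With groups of 3, no p below 0.1 can arise from this test. Without KO2 the first and second differences were 0.07 and 0.70.

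**Figure D4:**
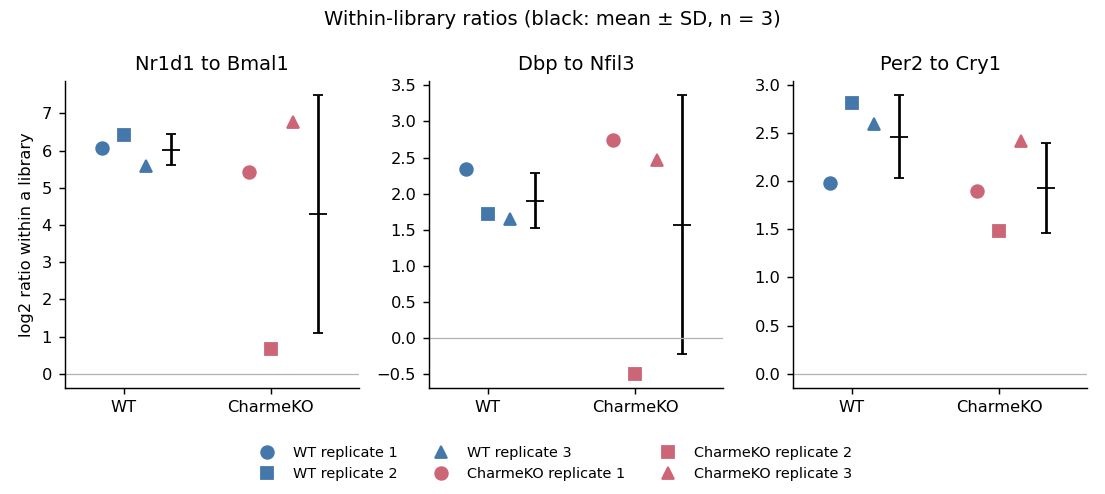
Log2 ratio of 2 clock transcripts within each library (vertical axes) for Nr1d1 to Bmal1, Dbp to Nfil3 and Per2 to Cry1 in WT (blue) and CharmeKO (red), with black bars for the mean ± SD (n = 3). CharmeKO replicate 2 lies at 0.67 for Nr1d1 to Bmal1 and at -0.49 for Dbp to Nfil3, apart from the other 5 libraries in both.

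The libraries were also compared through the mean of the members' standardized log2 levels, which was 0.0803, 0.907 and -0.171 in WT1 to WT3 and 0.0986, -1.19 and 0.272 in KO1 to KO3. KO2 was lowest and WT2 highest, and the other 4 lay close together. The genes of at least 5 CPM whose levels followed this profile most closely over the 6 libraries were Pcdhgb5, Nfkbib, Tmem200b, Smoc1 and Ccbe1 (Pearson r of 0.98 each), and those that ran most against it were Ifi44 and Mis12 (r of -0.99), Clock and 1700025G04Rik (-0.98) and Ficd (-0.97). Bmal1 had an r of -0.92 and Ciart of 0.89. These values are a description of 6 libraries over 10462 genes compared, and Clock is the one gene of the loop among the 10 named.

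The wider clock machinery and its outputs were read from lists chosen with earlier results of these data known. Of 18 tested genes for enzymes that modify clock proteins, such as kinases, phosphatases and ubiquitin ligases, 0 passed by edgeR, at a median of -0.07 on the log2 scale, and 0 of the 17 above 5 CPM departed 2-fold in KO2. Csnk1a1, a casein kinase, lay between 246 and 278 CPM in all 6 libraries, and the ubiquitin ligase Huwe1 between 207 and 265. Of 21 tested output genes 1 passed, with a median of -0.12. That gene was Ces1d, a carboxylesterase, which rose from 24.3 ± 3.43 to 52.6 ± 8.68 CPM (SD, n = 3, log2 fold change 1.12, SE 0.15, edgeR adjusted p = 0.00447) and did so without KO2 as well (adjusted p = 0.0309).

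Of the 17 output genes above 5 CPM, 2 departed 2-fold in KO2, beside 1.30% of all such genes. Some output genes were lowest in KO2 and others were not, such as Wee1 (28.2 CPM in KO2 and 22.1 to 33.1 CPM elsewhere). Noct, a rhythmic phosphatase once described as a deadenylase, was at 59.8, 56.0 and 71.6 CPM in WT and 34.6, 25.5 and 50.9 CPM in CharmeKO, without overlap, and passed by DESeq2 (adjusted p = 0.0234) but not by edgeR (log2 fold change -0.75, SE 0.21, adjusted p = 0.169). Tspan4, a tetraspanin, was at 110 CPM in KO2 and at 136 to 222 CPM elsewhere.

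Per1 and Per2 are also targets of glucocorticoids and immediate early signals, which dissociation can raise. Of 19 glucocorticoid response genes 0 passed by edgeR, with a median of -0.11, and their summed level was highest in WT2 (8208 CPM), where Per2 was highest, with 5182 to 7510 CPM in the other 5 libraries. Dusp1 and Cebpd, the most abundant of them, were at 2230 and 1276 CPM in WT2 and at 1550 to 1999 and 777 to 1374 CPM elsewhere. Immediate early and dissociation genes summed to 61639 CPM in WT2 and to 43057 to 54680 CPM elsewhere, led by Egr1 and Junb. KO2 stood within the range of the other libraries for both sums (6761 and 47602 CPM). Of 32 such genes 2 rose, the heat shock genes Hspa1a (log2 fold change 1.30, SE 0.21, edgeR adjusted p = 0.0116) and Hspa1b (1.59, SE 0.27, adjusted p = 0.0176), whose near-identical sequences can share reads. Neither passed without KO2 (edgeR adjusted p = 0.0618 and 0.0922), although their log2 fold changes stayed at 1.31 and 1.57. The part of these signals in the values of Per1 and Per2 was not tested.

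Several measures of the libraries stood beside the departure of KO2. Its fibroblast marker sum was the lowest (34023 CPM, against 36845 to 44137) and its endothelial sum the highest (13793 CPM, against 10609 to 12976). Of the fibroblast markers, Col1a1 and Col3a1 were the lowest in KO2, at 0.493 and 0.519 times the mean of the other 5 libraries. Cilp (0.582 times), Col1a2 (0.626), Mfap5 (0.683), Pdgfrl (0.801), Ddr2 (0.839), Dpt (0.875) and Dpep1 (0.903) were below that mean in KO2 too. Only Lum (1.36 times), Pdgfra (1.13), Dcn (1.06) and Tcf21 (1.03) were above it. Gsn held 20083 CPM of the KO2 sum, at 0.947 times the mean of the other 5. Pericyte and smooth muscle markers summed to 2578 CPM in KO2 and to 2621 to 3036 CPM elsewhere, and epicardial markers to 89.3 and 101 to 134 CPM. Cardiomyocyte markers (880 CPM in KO2, 701 to 1085 elsewhere), leukocyte markers (55.4 and 32.4 to 57.0), erythroid markers (31740 and 24408 to 39227) and Schwann cell markers (32.3 and 30.0 to 37.4) lay within the range of the other libraries. Between the groups, edgeR called 1 of 14 fibroblast markers (Cilp, lower), 2 of 13 cardiomyocyte markers (Myh6 and Tnni3, higher), 1 of 7 erythroid (Slc4a1, lower) and 1 of 7 epicardial markers (Wt1, lower), and 0 of 13 endothelial, 11 pericyte and smooth muscle, 10 leukocyte and 5 Schwann cell markers. Of these 5 markers, Slc4a1 alone also passed without KO2, in a fit that called 67 genes in place of 131. The log2 fold changes of the others moved little without KO2. They went from 0.845 to 0.854 for Myh6, 0.953 to 0.939 for Tnni3, -0.944 to -0.884 for Cilp and -0.656 to -0.630 for Wt1. KO2 shares its high Xist with WT1 and KO1, whose Nr1d1 was at 388 and 295 CPM and Dbp at 237 and 241 CPM. With a term for this split in the fit, 0 members passed, beside 0.652% of all genes, and the log2 fold changes were -0.38 for Per1, -0.36 for Cry2 and -0.68 for Nr1d1. It moved most for Per2, from -0.44 to -0.23, and, outside the members, for Bmal1, from 1.08 to 0.38, and Npas2, from 1.12 to 0.72. The part of cell composition and of the hour of collection in these values was not tested.

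Some members share bases with other genes. Nr1d1 overlaps Thra on the opposite strand by 263 exon bases and Dbp overlaps Sphk2 by 539, and the counting used the strand. Thra lay between 154 and 181 CPM in all 6 libraries, with KO2 at 1.06 times the mean of the others, and Sphk2 between 23.3 and 31.4 CPM with 30.9 in KO2, so the partners did not share the low library. Cry2 overlaps D930015M05Rik by 295 exon bases and Tef overlaps Gm17597 by 193, also on the opposite strand.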

How the data were processed

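mRNA of 3 WT and 3 CharmeKO libraries of native CFs, prepared with a directional poly(A) kit, was analysed, and all 6 were used. The authors filtered reads for quality, aligned them with STAR to a mouse assembly (GRCm39 among the builds in the submitters' processing notes), counted them per gene of an Ensembl annotation extended by Charme, kept the column of the reverse strand and deposited these counts, unnormalized and unfiltered. Of the rows, 4058 have no symbol and were kept by identifier. The labels do not say whether each library is a mouse of its own. The study reports hearts of 3 mice and describes its replicates as biological, and by Xist each group holds both sexes. The p-values measure the spread between these samples, which may be technical in part.

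The 15789 of 49548 genes that reached 10 counts in 2 or more libraries were normalized by TMM and tested with the quasi-likelihood test of edgeR 4.0.16 (R 4.3.3), without covariates, with Benjamini-Hochberg adjustment over all tested genes and a threshold of 0.05. The biological coefficient of variation was 20.2%. Standard errors and 95% intervals come from the F statistics. Depth ran from 9595701 to 42101393 counts, intervals for counts of 0 cover counting error only, and no library was a duplicate. Log2(CPM + 0.5) was used for departures, ratios within a library and correlations. Exon lengths, GC content and overlaps came from GENCODE mouse release M21 on GRCm38, another build than the counts, so coordinates are given only for RefSeq promoters on GRCm38.p6. The test was checked on simulated counts.

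The members and lists were chosen with earlier results of these data known. Named genes are the members, other core clock genes, per list the genes past the threshold and the 2 of highest mean CPM, and the 5 genes with the highest and the 5 with the lowest correlation to the members' mean profile. Some genes that the rule would name are not reported here. Noct, Wee1 and the fibroblast markers set against the other libraries in KO2 were named after their values were seen, and the overlap check was added then too. Alternatives were DESeq2 1.42.0, its size factors, upper-quartile normalization, edgeR's filterByExpr, no gene filter, a block for the replicate number, correction of GC and length trends, each library left out in turn and, added after the data were seen, a term for the split by Xist. For the ratios they were other pseudocounts and raw counts. Figures were drawn with matplotlib 3.10.9.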

Additional observations from a re-analysis of the deposited data

How the results depend on the processing

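The call of the members depended on the gene filter and on single libraries. Between CharmeKO and WT, 131 genes passed in all. The count was 394 (154 higher, 240 lower) with DESeq2, 699 (253 higher, 446 lower) without a gene filter, when 24579 genes were tested, and between 61 and 349 when each library was left out in turn (71, 349 and 67 without WT replicates 1, 2 and 3, 61, 67 and 189 without CharmeKO replicates 1, 2 and 3). Members called numbered 0 as reported, 3 without a gene filter (Nr1d1, Per1 and Cry2, all lower) and between 0 and 1 with a library left out, the 1 being Per1 without CharmeKO replicate 3. No other setting called a member. Bmal1 and Npas2 passed without a gene filter, which made 2 activators called in place of 0. Of the other repressors 1 passed with DESeq2. Of the output genes 2 passed with DESeq2 and 3 without a filter, and between 1 and 3 with a library left out. Glucocorticoid genes called numbered 4 without a filter, 1 with the Xist term and between 0 and 1 with a library left out. Immediate early genes called numbered 4 with DESeq2, 4 without a filter and between 0 and 2 with a library left out. The cause of these shifts was not tested.

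Same-numbered WT and CharmeKO samples correlated in their deviations at 0.18, 0.034 and 0.14, and those of unlike number at between -0.20 and 0.036. These values do not settle whether the numbers pair the samples. The main fit had no block, and the block was run as an alternative. With the replicate block, 302 genes passed (115 higher, 187 lower), 0 members, 2 output genes, 2 glucocorticoid genes and 4 immediate early genes. The block moved the log2 fold change of Nr1d1 from -0.76 to -1.17, of Dbp from -0.27 to -0.60, of Nr1d2 from -0.12 to -0.23, of Bmal1 from 1.08 to 0.56 and of Npas2 from 1.12 to 0.60. WT replicate 2 correlated no better with its own number than with CharmeKO replicate 3 (0.034 for both).

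With each library left out in turn, none of these genes passed the threshold, and the log2 fold change ranged from -0.10 (without CharmeKO replicate 1) to 0.32 for Per3, which was also -0.061 without WT replicate 3, and from -0.088 (without CharmeKO replicate 2) to 0.34 for Cry1. The highest values of Nr1d2, Dbp, Tef and Hlf came without CharmeKO replicate 2, with ranges from -0.36 to 0.20, from -0.68 to 0.21, from -0.33 to 0.16 and from -0.24 to 0.23. Tef was also 0.046 without WT replicate 2, and Hlf 0.18 without it and 0.0075 without WT replicate 1. The lowest values of Bmal1 and Npas2 came without CharmeKO replicate 2 too, with ranges from -0.30 to 1.56 and from -0.25 to 1.52. Rora ranged from -0.11 to 0.021 (without WT replicate 1). Bhlhe41, at 0.01, ranged from -0.36 (without CharmeKO replicate 1) to 0.36 (without CharmeKO replicate 2), was -0.034, -0.051 and -0.065 without WT replicate 2, WT replicate 3 and CharmeKO replicate 3, and was -0.0018 with DESeq2's size factors, -0.13 with the replicate block and -0.0028 with the Xist term. Of the values for single genes, 239 kept direction and side of the threshold, 20 turned and 7 passed it. The ratio differences ranged, with each library left out, from -2.98 to 0.071 for Nr1d1 to Bmal1, from -0.92 to 0.70 for Dbp to Nfil3 and from -0.77 to -0.31 for Per2 to Cry1. Counts of 0 allow the most in WT replicate 3, the shallowest library (0.313 CPM).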
